A study of Mus musculus with 31 samples.

Results

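The comparison described here asked how the liver response to the candidate antibiotic PF-04287881 differed between 2 inbred mouse strains, NZW/LacJ and SM/J. Its members are the 16 arrays of 4 groups, chosen by strain and treatment labels from the 31 arrays of the series, which also holds MA/MyJ and WSB/EiJ animals. The groups are NZW/LacJ given vehicle, NZW/LacJ given PF-04287881, SM/J given vehicle and SM/J given PF-04287881, with 4 animals in each. All were female and 8 to 10 weeks old at the start, vehicle was sterile water, and treated animals received 600 mg/kg by oral gavage on 7 successive days. Left-lobe tissue was frozen 24 hours after the last dose, and RNA of the whole tissue was hybridised, so cell types are mixed in every value. In the submitters' coding NZW/LacJ livers showed vacuolated Kupffer cells and single cell necrosis, and SM/J livers showed neither finding. The coding is given per strain, not per animal, so a difference between these 2 strains cannot be told apart from a difference that goes with either finding.

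Hepatocytes clear drugs through cytochrome P450 and conjugating enzymes, whose genes are switched on by nuclear receptors such as CAR and PXR. Liver also has a strong circadian clock, in which the activators ARNTL, CLOCK and NPAS2 drive genes for their own repressors, the PER, CRY and NR1D1 proteins. Interferons, released when nucleic acids or microbes are sensed, induce a broad set of antiviral and antigen-presenting genes in hepatocytes and in Kupffer cells, the macrophages that reside in liver sinusoids.

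Values are log2 intensities, on which 1 unit is a doubling. The drug effect in a strain is the mean of treated minus the mean of vehicle animals, and the strain difference is the NZW/LacJ effect minus the SM/J effect. Fitted values are given ± 1 standard error with p-values adjusted over all 12485 genes tested, and a gene passed at an adjusted p under 0.05. A positive strain difference is called higher and a negative one lower, whatever the direction in each strain.

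All 16 arrays lay with their labelled strain. On a scale over strain-specific probe sets, where vehicle SM/J averages near 0 and vehicle NZW/LacJ near 1, SM/J arrays lay from 0.0141 to 0.0956, vehicle NZW/LacJ from 0.979 to 0.996 and treated NZW/LacJ from 0.826 to 0.867. Among the other strains, 1 library goes against its label: treated animal 3 of WSB/EiJ placed at 0.998 between WSB/EiJ (0) and NZW/LacJ (1), and WSB/EiJ vehicle animal 4 lay at 0.294. For that reason the other 15 arrays were kept out of the fit. The first principal component held 41.3% of the variance and separated the strains, and the second, with 24.1%, separated treated from vehicle animals. On the second, treated NZW/LacJ animals 1 to 4 stood at 31.1, 13.2, 12.8 and 25.3, and treated SM/J animals at 16, 4.8, 9.9 and -3.6, against -19 to -16 and -12.5 to -8 in the vehicle groups. Defining hepatocyte genes such as Alb, Apoa1 and Ttr were among the 19 tested hepatocyte markers, whose summed log2 level was 18.4 in all 4 groups. None of the 19 passed for the strain difference on its chosen probe set. Other probe sets of Hnf4a, 1 of the 19, passed as lower. They stood at -0.45, -0.66 and -0.75 (adjusted p = 0.0102, 0.0121 and 0.00554 by limma). In whole tissue, fewer cells of a type and less RNA per cell cannot be told apart.

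The strain difference passed for 1902 of 12485 genes (15.2%), of which 1338 (10.7%) were higher and 564 (4.52%) lower. Its median size among these genes was 0.523, and 115 genes exceeded 1 and 45 fell below -1. In NZW/LacJ 2775 genes (22.2%) rose and 1439 (11.5%) fell, a split that became 2323 and 1878 when quantile normalization was repeated over the 16 arrays. The same step changed the split of the strain difference to 1102 higher and 716 lower. Its median over all genes tested went from 0.033 to 0.007. In SM/J 1027 genes (8.23%) passed, of which 547 (4.38%) rose and 480 (3.84%) fell. The 568 genes that passed in both strains were 13.5% of the NZW/LacJ genes and 55.3% of the SM/J genes, and 455 of them moved the same way and 113 in opposite ways. Fits that added the other strains' arrays called fewer genes, 720 with all 31 arrays and 1189 without the doubtful WSB/EiJ array, and all 1902 genes kept their direction in both. The SM/J count fell from 1027 to 619, 632 and 662 without SM/J vehicle animal 2, treated animal 1 or treated animal 3. It rose to 1216 without treated animal 4, and to 2642 with array weights, beside 4388 in NZW/LacJ with the same weights.

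**Figure D1:**
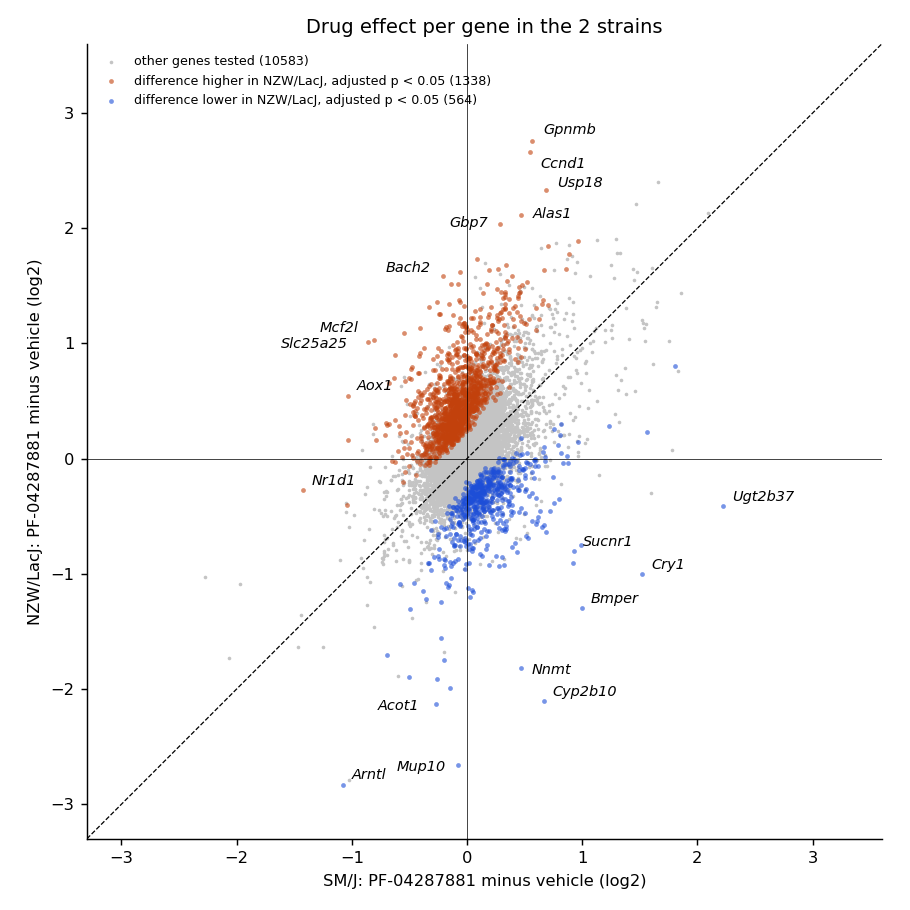
Drug effect in SM/J (horizontal axis, log2) against that in NZW/LacJ (vertical axis, log2) for each of 12485 genes tested, with equal effects on the dashed line. Orange points mark the 1338 genes and blue points the 564 genes whose strain difference passed; the cloud is taller than wide, with a standard deviation over genes of 0.357 in NZW/LacJ and 0.236 in SM/J.

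The 12 largest higher differences were those of Gpnmb, Ccnd1, Slc25a25, Mcf2l, Bach2, Gbp7, Per1, Mterf2, Nipal1, Alas1, Usp18 and Eps8, from 1.64 to 2.19. The 12 largest lower ones were those of Cyp2b10, Ugt2b37, Mup10, Cry1, Bmper, Nnmt, Acot1, Lrrc28, Arntl, Rhpn2, Sucnr1 and Tspyl4, from -2.77 to -1.65. All 12 of the first group rose in NZW/LacJ, and of the second group Arntl alone passed as lower in both strains. Gpnmb and Mup10 entered the test only through the 1 group in which they were high, so they had to differ and their rank is a description. The genes of both groups are described below by what their products do.

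**Figure D2:**
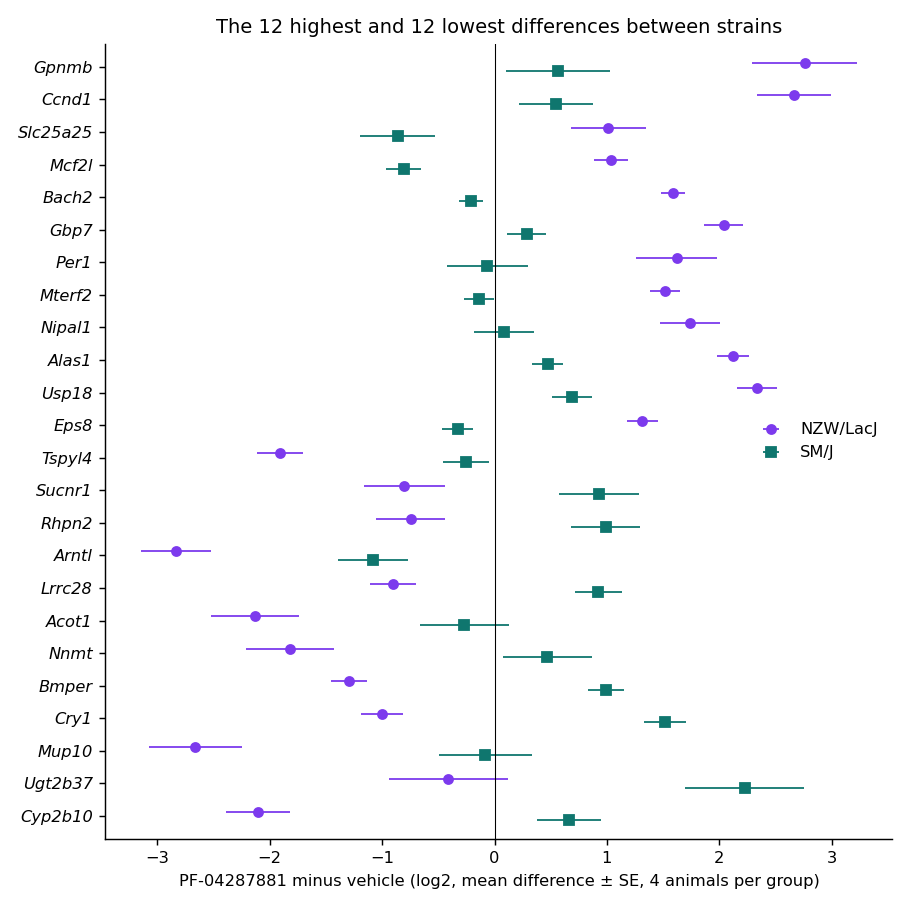
Drug effect (log2, mean difference ± standard error, 4 animals per group) in NZW/LacJ (circles) and SM/J (squares) for the 12 genes with the highest and the 12 with the lowest strain difference. The circles of Gpnmb and Ccnd1 lie beyond 2.6 while their squares lie under 0.6, and the circles of Cry1 and Bmper lie below 0 while their squares lie above it.

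Drug-metabolising genes held the lowest difference of all genes tested. Cyp2b10, a cytochrome P450 that is the classical target of CAR in mouse liver, measured 9.05, 9.56, 8.66 and 9.13 in NZW/LacJ vehicle animals 1 to 4 and 6.72, 7.61, 6.97 and 6.69 in the treated ones. In SM/J it measured 9.36, 9.27, 9.23 and 10.15 under vehicle and 10.29, 10.69, 9.37 and 10.33 under the drug. Every treated NZW/LacJ animal lay below every vehicle animal of its strain, by a 4.30-fold lower mean, whereas in SM/J the groups overlapped, vehicle animal 4 lying above treated animal 3. The effects were -2.10 ± 0.29 and 0.66 ± 0.29, and the strain difference was -2.77 ± 0.41 (adjusted p = 0.000566).

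Alas1, the rate-limiting enzyme of haem synthesis and itself a CAR and PXR target, moved the other way. Its values were 10.55, 11.25, 10.93 and 10.80 in vehicle and 13.02, 12.90, 13.14 and 12.96 in treated NZW/LacJ animals, and 13.41, 12.95, 13.09 and 13.38 in vehicle and 13.56, 13.77, 13.47 and 13.91 in treated SM/J animals. Vehicle NZW/LacJ livers held less Alas1 signal than any other group, and the treated ones overlapped vehicle SM/J livers. It rose by 2.12 ± 0.14 (adjusted p = 3.91e-07) in NZW/LacJ, 4.35-fold, and by 0.47 ± 0.14 (adjusted p = 0.0497) in SM/J, with a strain difference of 1.65 ± 0.20 (adjusted p = 0.00018). The strain difference and the vehicle levels share the vehicle animals, so they are 2 views of the same values.

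Of the 31 tested genes of the CAR and PXR drug metabolism list, 3 were higher (Alas1, Nr1i3 and Ugt2b35) and 4 lower (Cyp2b10, Cyp3a13, Sult1d1 and Cyp2c70), with a median difference of -0.14 against 0.03 over all genes. Over all genes 10.7% were higher and 4.52% lower. In NZW/LacJ 17 of the 31 fell and 1 rose, against 6 and 2 in SM/J, beside 11.5% and 22.2% of all genes in NZW/LacJ and 3.84% and 4.38% in SM/J. Nr1i3, which encodes CAR itself, had an effect of 0.05 in NZW/LacJ and -0.43 (adjusted p = 0.00702) in SM/J, a difference of 0.48. Cyp3a13, a P450, fell in NZW/LacJ by 0.61 ± 0.16 (adjusted p = 0.00786) with 0.28 ± 0.16 (adjusted p = 0.308) in SM/J, and Sult1d1, a sulphotransferase, fell in NZW/LacJ by 0.32 ± 0.10 (adjusted p = 0.0219) and rose in SM/J by 0.54 ± 0.10 (adjusted p = 0.0043). Nr1i3, Ugt2b35 and Cyp2c70 were named after their values were seen. With all 31 arrays in the fit, 0 members were higher and 2 lower.

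Other enzymes split as widely. Ugt2b37, a glucuronosyltransferase, measured 5.69, 5.10, 5.27 and 5.06 in vehicle and 8.08, 7.36, 8.16 and 6.42 in treated SM/J animals, groups that do not overlap, and 9.82, 8.43, 9.07 and 8.41 under vehicle and 8.65, 8.89, 6.75 and 9.79 under the drug in NZW/LacJ, groups that do. All 4 vehicle SM/J values lay under 6.49, the median over the arrays' probe sets, so no fold is given. It rose in SM/J by 2.22 ± 0.53 (adjusted p = 0.0173), with -0.41 ± 0.53 (adjusted p = 0.589) in NZW/LacJ, and the strain difference of -2.63 ± 0.75 (adjusted p = 0.027) lost its call in 3 of the 16 fits that each left out 1 animal, with adjusted p up to 0.0589. Aox1, an aldehyde oxidase, rose in NZW/LacJ by 0.55 ± 0.16 (adjusted p = 0.0154) and fell in SM/J by 1.03 ± 0.16 (adjusted p = 0.00157). Nnmt, which methylates nicotinamide, fell in NZW/LacJ by 1.82 ± 0.39 (adjusted p = 0.00242) with 0.47 ± 0.39 (adjusted p = 0.511) in SM/J. Of 42 named genes that passed and had another tested probe set, 21 had at least 1 other that did not pass. For 10 of these (Slc25a25, Tap1, Ids, Lamtor2, Acly, Mrpl17, Psmd13, Dnajc3, Txnrd1 and Bid) another probe set had the opposite sign. Members of the drug-metabolising enzyme families have near-identical copies in the genome, so a probe set may also read a relative.

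Mup10 belongs to the major urinary proteins, pheromone carriers secreted by hepatocytes and encoded by a cluster of near-identical genes, so its probe set cannot be assigned to 1 copy. It measured 8.84, 8.66, 8.64 and 8.78 in vehicle and 5.72, 6.87, 4.58 and 7.11 in treated NZW/LacJ animals. In SM/J the values were 4.36, 5.42, 4.91 and 4.30 under vehicle and 4.70, 5.05, 4.31 and 4.61 under the drug, all under 6.49. The groups were apart in NZW/LacJ, where the signal fell by 2.66 ± 0.41 (adjusted p = 0.000202), and overlapped in SM/J.

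The clock genes Per1, Cry1 and Arntl were among those with the largest differences. The promoters of Cry1 and Per1, both described next, are printed from RefSeq (GRCm38.p6, 5′ to 3′ on the gene's strand) because each holds the letters CACGTG, an E-box, the sequence that ARNTL and its partners bind, shown in capitals. Cry1 lies at chr10:85185005-85185304 on the minus strand and Per1 at chr11:69098699-69098998 on the plus strand, each window running from 250 bases before to 50 after the start of the gene.
Cry1: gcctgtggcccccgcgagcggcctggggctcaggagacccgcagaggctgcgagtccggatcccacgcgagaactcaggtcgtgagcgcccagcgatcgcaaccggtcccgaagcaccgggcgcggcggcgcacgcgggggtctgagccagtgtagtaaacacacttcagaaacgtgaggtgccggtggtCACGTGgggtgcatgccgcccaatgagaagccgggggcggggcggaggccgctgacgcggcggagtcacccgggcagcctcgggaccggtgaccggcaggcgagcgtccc
Per1: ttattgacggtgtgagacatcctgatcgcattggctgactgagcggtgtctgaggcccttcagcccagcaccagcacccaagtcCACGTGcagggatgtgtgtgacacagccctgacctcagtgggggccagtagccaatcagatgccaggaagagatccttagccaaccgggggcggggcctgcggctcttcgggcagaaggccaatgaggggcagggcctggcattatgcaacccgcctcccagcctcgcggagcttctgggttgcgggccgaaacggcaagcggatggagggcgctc
Both strands were searched, and CACGTG was present in a promoter of 11.5% of the 10075 tested genes found in the RefSeq table, and of 4 of the 16 tested clock genes among them. A match describes the letters and not a bound factor.

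Cry1, a repressor of the clock, moved in opposite directions in the 2 strains. It measured 8.26, 8.38, 7.96 and 7.76 in vehicle and 6.64, 7.15, 7.16 and 7.40 in treated NZW/LacJ animals, and 5.92, 6.33, 6.05 and 6.25 in vehicle and 7.51, 7.75, 7.28 and 8.10 in treated SM/J animals. No treated animal overlapped the vehicle animals of its strain, and the vehicle strains themselves lay apart, with NZW/LacJ above SM/J. Cry1 fell by 1.00 ± 0.19 (adjusted p = 0.000797) in NZW/LacJ, rose by 1.52 ± 0.19 (adjusted p = 0.000383) in SM/J, and differed by -2.52 ± 0.26 (adjusted p = 7.32e-05).

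Arntl, which encodes the central activator BMAL1, measured 9.29, 9.15, 9.32 and 8.92 in vehicle and 6.37, 5.97, 6.32 and 6.71 in treated NZW/LacJ animals. Treated NZW/LacJ animals 1, 2 and 3 lay under 6.49, so no fold is given. In SM/J Arntl measured 8.66, 7.85, 8.67 and 6.92 under vehicle and 7.01, 7.33, 6.37 and 7.08 under the drug. The NZW/LacJ groups lay over 2 log2 units apart, while SM/J vehicle animal 4 lay within the treated range. Arntl fell by 2.83 ± 0.31 (adjusted p = 1.17e-05) in NZW/LacJ and by 1.08 ± 0.31 (adjusted p = 0.0444) in SM/J, and the difference was -1.75 ± 0.44 (adjusted p = 0.0147). A second probe set of Arntl, of nearly the same mean level (7.60 against 7.62), had a strain difference of -0.009 (adjusted p = 0.962 by limma), so these values rest on 1 probe set.

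Npas2, a partner of ARNTL, went the same way, at 6.63, 6.67, 6.63 and 6.59 in vehicle and 6.0, 5.51, 6.01 and 5.53 in treated NZW/LacJ animals, against 6.66, 6.28, 6.07 and 6.08 in vehicle and 5.95, 6.04, 6.03 and 6.11 in treated SM/J animals. The NZW/LacJ groups were apart, and in SM/J the vehicle and treated values met, most of them under 6.49. Its strain difference was -0.62 (adjusted p = 0.0337), and it passed the filter only through vehicle NZW/LacJ animals, so it had to differ. Clock, the other partner, fell in NZW/LacJ by 0.72 and in SM/J by 0.55, and its strain difference of -0.17 did not pass (adjusted p = 0.382).

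Among the repressors, Per1 measured 7.17, 8.0, 6.83 and 6.98 in vehicle and 8.73, 8.12, 9.66 and 8.96 in treated NZW/LacJ animals, with vehicle animal 2 close to treated animal 2. In SM/J it measured 8.83, 7.84, 8.97 and 9.11 under vehicle and 8.12, 8.41, 8.60 and 9.37 under the drug, overlapping groups. Its effect was 1.62 ± 0.36 in NZW/LacJ and -0.06 ± 0.36 in SM/J, and the strain difference of 1.68 ± 0.51 (adjusted p = 0.0353) lost its call in 11 of the 16 fits without 1 animal (adjusted p up to 0.0713). Nr1d1, which encodes the nuclear receptor REV-ERB alpha that represses Arntl, fell in SM/J by 1.43 ± 0.21 (adjusted p = 0.00117), from 9.24, 9.46, 9.42 and 9.35 to 7.55, 8.48, 8.26 and 7.45, with -0.27 ± 0.21 (adjusted p = 0.344) in NZW/LacJ, where treated animal 4 at 8.37 stood below the rest.

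In all, 2 of the 18 tested clock genes were higher and 3 lower for the strain difference, beside 10.7% and 4.52% of all genes. The share higher is near the background. The 3 lower include Npas2, which had to differ. When genes had to lie above 6.49 in at least 12 of the 16 arrays, 2 were lower. In NZW/LacJ 9 rose and 4 fell, beside 22.2% and 11.5% of all genes, and in SM/J 1 and 3, beside 4.38% and 3.84%. Dbp, an output gene of the clock, rose in NZW/LacJ by 1.70 (adjusted p = 0.00352) with 0.16 in SM/J, and its strain difference of 1.54 did not pass (adjusted p = 0.0712). SM/J vehicle animal 1, at 8.98 for Dbp, lay below the rest of its group. Npas2, Clock and Dbp were named after their values were seen. The 2 higher calls were lost in both fits that added other strains and became 5 with array weights. The sources used here do not give the hour at which each animal was killed, and its part in the clock values was not tested.

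**Figure D3:**
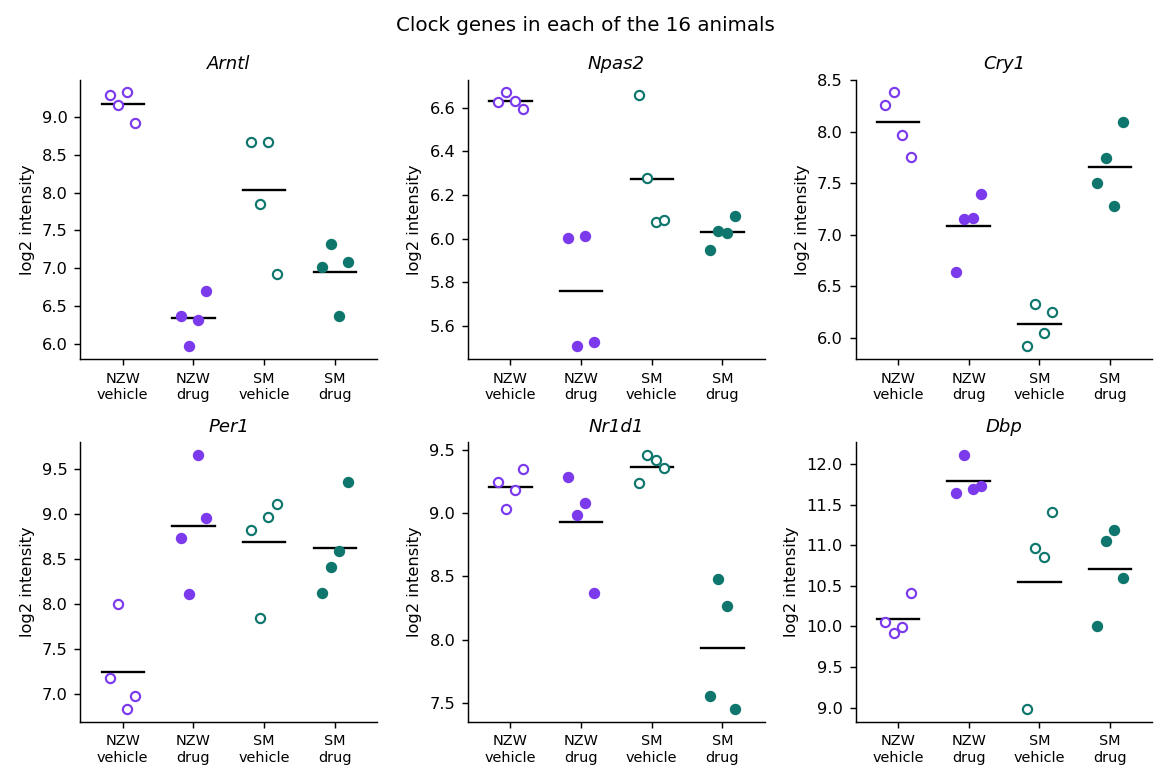
Log2 intensity of 6 clock genes in each of the 16 animals; open points are vehicle, filled points PF-04287881, and bars the mean of 4 animals, with axes that do not start at 0. Cry1 is lower after the drug in NZW/LacJ and higher in SM/J, and Arntl is lower in both with the wider gap in NZW/LacJ.

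Interferon-response genes rose in NZW/LacJ, and their strain difference was higher in 17 of 30 tested members and lower in 0, against 10.7% and 4.52% of all genes. The median difference was 0.58, and 21 members rose in NZW/LacJ (22.2% of all genes) and 7 in SM/J (4.38% of all genes), where 1 fell. The promoters of Gbp7, Ifit1 and Igtp are printed with the core of the interferon-stimulated response element, which is GAAA, any 2 bases and GAAA again, searched on both strands and shown in capitals, a sequence bound by interferon-activated factors; they are RefSeq windows of GRCm38.p6 on the plus strand at chr3:142530086-142530385 (Gbp7), chr19:34640639-34640938 (Ifit1) and chr11:58199306-58199605 (Igtp).
Gbp7: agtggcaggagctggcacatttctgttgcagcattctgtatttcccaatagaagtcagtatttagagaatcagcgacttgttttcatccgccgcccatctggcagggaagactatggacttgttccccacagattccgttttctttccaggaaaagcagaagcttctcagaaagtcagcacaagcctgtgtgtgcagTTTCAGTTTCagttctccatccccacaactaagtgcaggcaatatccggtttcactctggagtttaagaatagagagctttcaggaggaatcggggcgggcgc
Ifit1: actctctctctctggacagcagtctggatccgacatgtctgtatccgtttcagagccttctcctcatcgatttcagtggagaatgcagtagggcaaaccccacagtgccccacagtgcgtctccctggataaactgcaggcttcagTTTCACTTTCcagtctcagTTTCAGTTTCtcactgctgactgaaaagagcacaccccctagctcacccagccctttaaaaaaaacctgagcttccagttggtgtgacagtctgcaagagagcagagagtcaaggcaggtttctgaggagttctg
Igtp: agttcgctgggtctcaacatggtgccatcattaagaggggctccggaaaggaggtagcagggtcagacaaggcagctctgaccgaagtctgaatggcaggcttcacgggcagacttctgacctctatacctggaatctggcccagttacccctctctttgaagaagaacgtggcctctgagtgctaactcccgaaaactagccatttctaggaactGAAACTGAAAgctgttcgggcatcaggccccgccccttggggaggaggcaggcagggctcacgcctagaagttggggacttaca
This core was found in a promoter of 3.56% of the 10075 tested genes in the RefSeq table and of 11 of the 20 tested interferon-response genes among them, 5 of them among the 12 whose strain difference passed. Gbp7 and Igtp belong to the interferon-inducible GTPases described below, for which it was found in 6 of 7 tested genes. The printed promoters were taken from those with a match.

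Usp18, a protease that removes the ubiquitin-like protein ISG15 and restrains interferon signalling, measured 7.36, 7.55, 7.14 and 7.29 in vehicle and 10.13, 9.29, 9.75 and 9.48 in treated NZW/LacJ animals, and 8.11, 8.01, 8.33 and 7.89 under vehicle and 9.16, 8.35, 8.74 and 8.84 under the drug in SM/J. Treated and vehicle animals were apart in both strains, with the wider gap in NZW/LacJ. It rose by 2.33 ± 0.18 (adjusted p = 9.49e-07) in NZW/LacJ (5.03-fold) and by 0.69 ± 0.18 (adjusted p = 0.0269) in SM/J (1.61-fold), a difference of 1.64 ± 0.25 (adjusted p = 0.000774).

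Rtp4, a receptor-transporting protein induced by interferon, measured 8.79, 8.90, 9.02 and 8.93 in vehicle and 10.57, 10.50, 9.95 and 10.40 in treated NZW/LacJ animals, and 9.67, 9.88, 9.91 and 9.79 under vehicle and 10.15, 9.74, 10.0 and 9.90 under the drug in SM/J. The SM/J groups overlapped and those of NZW/LacJ did not. The strain difference was 1.31 ± 0.17 (adjusted p = 0.0003). Ifit1, which binds viral RNA ends, gave 6.92, 7.23, 7.0 and 7.07 under vehicle and 8.93, 8.54, 7.74 and 7.88 under the drug in NZW/LacJ, again with vehicle values below those of SM/J (7.75, 8.08, 8.17 and 7.82), and a difference of 1.16 ± 0.29 (adjusted p = 0.0138). Oas1a, a sensor of double-stranded RNA, differed by 1.03 ± 0.26 (adjusted p = 0.0147), rising by 1.39 ± 0.18 (adjusted p = 5.18e-05) in NZW/LacJ with 0.36 ± 0.18 (adjusted p = 0.247) in SM/J.

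The starting levels of the whole list differed too. Its summed log2 level over 33 measured genes was 13.8 to 13.9 in vehicle NZW/LacJ, 14.1 to 14.2 in vehicle SM/J, 14.3 to 14.8 in treated NZW/LacJ and 14.3 to 14.5 in treated SM/J, so that the treated strains overlapped and the vehicle strains did not. Averaged over the 30 tested genes, treated NZW/LacJ animals 1 to 4 stood 0.988, 0.749, 0.468 and 0.899 above their vehicle mean and treated SM/J animals 0.356, 0.127, 0.225 and 0.263 above theirs. The smallest NZW/LacJ rise was larger than the largest SM/J rise.

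The interferon-inducible GTPases, proteins that attack membranes around intracellular microbes, had a higher strain difference in 5 of 9 tested members and a lower one in 0. Over all genes 10.7% were higher and 4.52% lower. The 5 were Gbp7, Gbp6, Igtp, Irgm2 and, named after its value was seen, Ifi47. In NZW/LacJ 7 rose and in SM/J 0, beside 22.2% and 4.38% of all genes. Gbp7 measured 6.14, 6.31, 6.12 and 6.13 in vehicle and 8.35, 8.41, 7.80 and 8.29 in treated NZW/LacJ animals, and 7.76, 8.79, 8.57 and 8.42 under vehicle and 8.76, 8.77, 8.61 and 8.54 under the drug in SM/J. Its vehicle values in NZW/LacJ lay below the median of all probe sets and those of SM/J above the treated NZW/LacJ range except animal 1. Gbp7 rose by 2.04 ± 0.18 (adjusted p = 2.47e-06) in NZW/LacJ, and the difference was 1.75 ± 0.25 (adjusted p = 0.000498), while Igtp and Irgm2 differed by 0.86 and 0.65.

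Of 12 tested genes for antigen processing and MHC class I, 3 were higher (Psmb9, Tap1 and Psmb10) and Erap1 was lower. Over all genes 10.7% were higher and 4.52% lower. The list's median difference was 0.01 against 0.03 over all genes, and 6 of the 12 differences were positive. In each strain 9 rose, beside 22.2% of all genes in NZW/LacJ and 4.38% in SM/J. Psmb9, an immunoproteasome subunit that cuts peptides for presentation, measured 8.50, 8.52, 8.73 and 8.52 in vehicle and 9.86, 10.06, 9.55 and 10.38 in treated NZW/LacJ animals, against 8.47, 9.05, 8.99 and 9.02 under vehicle and 9.0, 9.40, 9.26 and 9.11 under the drug in SM/J, and differed by 1.09 ± 0.22 (adjusted p = 0.00498). Tap1, which carries those peptides into the endoplasmic reticulum, differed by 0.76 ± 0.18 (adjusted p = 0.0114). The lower difference of Erap1 (-0.39, adjusted p = 0.0296) lost its call in 7 of the 16 fits without 1 animal (adjusted p up to 0.0594). None of the 6 tested MHC class II genes passed, H2-Ab1 among them at -0.18 (adjusted p = 0.849).

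These interferon calls depended on the arrays in the fit: with all 31 arrays 1 response gene and 1 GTPase were higher, without the doubtful WSB/EiJ array 2 and 1, and in both fits 0 antigen-processing genes, while every gene that had passed kept its direction. Leaving out single animals of the 16 gave 13 to 17 and 4 to 6.

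**Figure D4:**
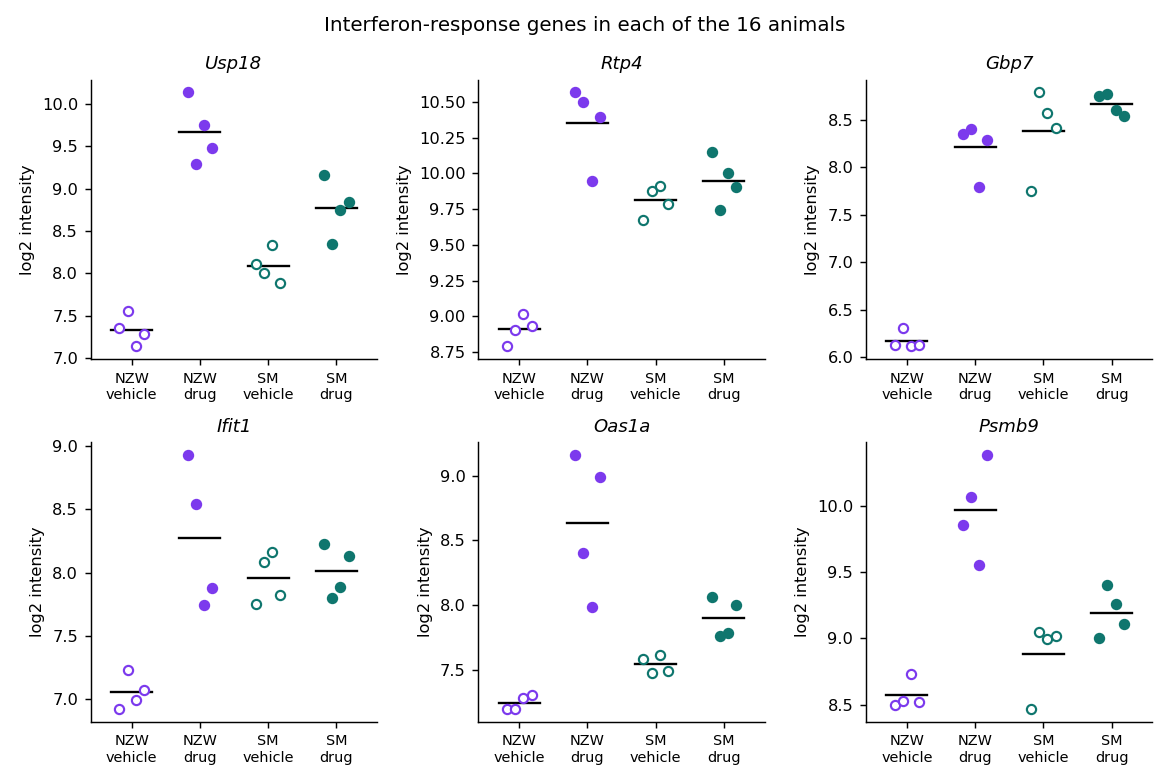
Log2 intensity of 6 interferon-response genes in each of the 16 animals; open points are vehicle, filled points PF-04287881, and bars the mean of 4 animals, with axes that do not start at 0. In each panel the 4 treated NZW/LacJ animals lie above the 4 vehicle animals of that strain, and for Rtp4, Gbp7, Ifit1 and Psmb9 the SM/J groups overlap.

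Gpnmb, a glycoprotein of lipid-laden macrophages, measured 5.95, 5.96, 5.80 and 5.89 in vehicle and 9.98, 7.12, 7.69 and 9.85 in treated NZW/LacJ animals, and 5.50, 5.28, 5.54 and 5.56 under vehicle and 6.17, 6.02, 5.99 and 5.97 under the drug in SM/J. Treated NZW/LacJ animals 1 and 4 stood over 2 units above animals 2 and 3, while the SM/J groups, though apart, stayed under 6.49. Gpnmb passed the filter only through the 4 treated NZW/LacJ animals, so it had to differ, and its call and rank are a description. It rose by 2.76 ± 0.46 (adjusted p = 0.000366) in NZW/LacJ, and its strain difference of 2.19 ± 0.66 (adjusted p = 0.0348) lost its call in 11 of the 12 fits that left out an animal of another group (adjusted p up to 0.0606), while it was too dim to be tested without any 1 treated NZW/LacJ animal. In the other strains the Gpnmb effect was 3.94 in MA/MyJ and 1.15 in WSB/EiJ without the doubtful array.

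Of 13 tested markers of monocytes and lipid-associated macrophages 2 were higher (Gpnmb and Lpl) and 0 lower, beside 10.7% and 4.52% of all genes. Gpnmb, counted here, had to differ because of the filter, so its call adds no support. In NZW/LacJ 10 rose, Gpnmb among them, and in SM/J 1, beside 22.2% and 4.38% of all genes. The 4 groups shared 1 spread per gene, so a wide treated NZW/LacJ group also widened the SM/J error. For Gpnmb the standard deviation was 1.47 in treated NZW/LacJ, and 0.13 and 0.09 in vehicle and treated SM/J. Missing a call in SM/J is therefore not an absent rise. Averaged over the 13 genes, treated SM/J animals stood 0.39 to 0.69 above their vehicle mean, and treated NZW/LacJ animals 0.52 to 1.85 above theirs. Lpl, lipoprotein lipase, rose in NZW/LacJ by 0.84 ± 0.19 (adjusted p = 0.00307) with -0.23 ± 0.19 (adjusted p = 0.506) in SM/J. The mean of Cd68, named after its values were seen, went from 7.37 to 9.03 in NZW/LacJ and from 7.35 to 8.96 in SM/J. Whether passing or not, 10 of the 13 strain differences were positive. Nr1h3, which encodes the sterol receptor LXR alpha, was the 1 of 18 Kupffer cell markers to pass, at 0.36 ± 0.08 (adjusted p = 0.00763), and the defining Kupffer genes Clec4f (0.64, adjusted p = 0.305) and Timd4 (0.48, adjusted p = 0.545) did not. The summed log2 level of 19 Kupffer cell markers was 14.3 to 14.6 in vehicle and 14.2 to 15.4 in treated NZW/LacJ animals, and 14.0 to 14.4 and 14.1 to 14.7 in SM/J. For 21 monocyte and lipid-associated markers it was 14.2 to 14.4 and 14.3 to 15.4 in NZW/LacJ, and 14.4 to 14.8 and 14.4 to 14.9 in SM/J. Their part in the interferon and macrophage values was not tested.

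Of 45 tested lysosomal enzymes and membrane proteins 30 rose in NZW/LacJ and 18 in SM/J, beside 22.2% and 4.38% of all genes. For the strain difference 4 were higher and 1 lower, beside 10.7% and 4.52% of all genes, so the share higher is near the background. Hexa, a subunit of the ganglioside-degrading hexosaminidase, rose by 1.21 ± 0.15 (adjusted p = 3.62e-05) and 0.54 ± 0.15 (adjusted p = 0.0398), and its difference of 0.67 ± 0.22 (adjusted p = 0.0471) was lost in 11 of the 16 fits without 1 animal (adjusted p up to 0.096). Pla2g15, the lysosomal phospholipase A2, rose in NZW/LacJ by 0.64 ± 0.09 (adjusted p = 9.47e-05) with 0.13 ± 0.09 (adjusted p = 0.432) in SM/J, and differed by 0.51 ± 0.13 (adjusted p = 0.0141). Ids, which degrades heparan and dermatan sulphate, differed by 0.50, whereas Ctsl, the protease cathepsin L, was lower (-0.30) and rose in SM/J by 0.27 ± 0.06 (adjusted p = 0.0119). None of 16 vacuolar proton ATPase subunits and none of 19 cholesterol synthesis genes passed, although 12 and 2 of the former rose in NZW/LacJ and SM/J. By limma, 1 of the ATPase subunits and 4 of the cholesterol genes had an unadjusted p under 0.05. Another probe set of the subunit gene Atp6v1a passed, at 0.58 (adjusted p = 0.0259 by limma). With array weights 1 subunit was higher and 2 cholesterol genes were lower.

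Among autophagy genes, 3 of 28 were higher and Wipi1 alone was lower, shares near the 10.7% and 4.52% of all genes. Gabarapl1, a membrane-bound adaptor of autophagosomes, rose in NZW/LacJ by 0.67 ± 0.11 (adjusted p = 0.000335) with -0.04 ± 0.11 (adjusted p = 0.887) in SM/J. Nbr1, a cargo receptor, differed by 0.37 and Lamtor2, a subunit of the Ragulator complex on lysosomes, by 0.41. Wipi1, which binds phosphoinositides on forming autophagosomes, rose in SM/J by 0.45 ± 0.07 (adjusted p = 0.00164) with -0.10 ± 0.07 (adjusted p = 0.311) in NZW/LacJ.

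Cell-cycle and cell-death genes followed. Ccnd1, cyclin D1, which starts the G1 phase with its kinases CDK4 and CDK6, measured 9.26, 9.45, 9.82 and 9.75 in vehicle and 12.80, 11.94, 11.52 and 12.66 in treated NZW/LacJ animals. In SM/J it measured 9.31, 8.58, 8.47 and 8.07 under vehicle and 9.71, 8.88, 9.60 and 8.43 under the drug. The NZW/LacJ groups were apart and the SM/J groups overlapped. Ccnd1 rose 6.33-fold in NZW/LacJ (2.66 ± 0.33, adjusted p = 2.86e-05) with 0.55 ± 0.33 (adjusted p = 0.336) in SM/J, and the difference was 2.12 ± 0.46 (adjusted p = 0.00679).

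Cdk6 rose in NZW/LacJ by 1.07 ± 0.10 (adjusted p = 5.02e-06), from 8.68, 8.76, 8.92 and 8.91 to 9.94, 9.87, 9.77 and 9.98, and differed by 0.99 ± 0.15 (adjusted p = 0.00067); Cdk4 differed by 0.41 ± 0.13 (adjusted p = 0.0461), a call lost in 11 of 16 fits without 1 animal (adjusted p up to 0.0899). Rrm2, a ribonucleotide reductase subunit needed for DNA synthesis, went the other way at -1.18 ± 0.28 (adjusted p = 0.0109), with 5.70 to 6.20 in vehicle SM/J animals, under the median of all probe sets. In all, 3 of 18 tested cell-cycle genes were higher and 1 lower, beside 10.7% and 4.52% of all genes. Of 17 tested p53 and apoptosis genes, Bid, which relays caspase-8 activation to mitochondria, was the 1 that passed: it rose in NZW/LacJ by 1.59 ± 0.21 (adjusted p = 4.9e-05), 3.00-fold, with 0.39 ± 0.21 (adjusted p = 0.273) in SM/J, from a vehicle range of 6.83 to 7.11 in NZW/LacJ and 8.84 to 9.29 in SM/J.

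Mitochondrial ribosome genes, which encode the proteins that translate mitochondrial messages with mitochondrial RNA, gave small differences, higher in 20 of 69 tested and lower in 0, beside 10.7% and 4.52% of all genes, with a median of 0.14. In NZW/LacJ 21 rose and 2 fell, beside 22.2% and 11.5% of all genes, and in SM/J 0 rose and 6 fell, beside 4.38% and 3.84%. Mrps6, a protein of the small subunit, measured 9.06, 9.04, 9.12 and 9.14 in vehicle and 10.11, 9.93, 9.76 and 10.19 in treated NZW/LacJ animals, against 9.79, 9.82, 9.74 and 9.67 under vehicle and 10.03, 9.86, 9.92 and 9.50 under the drug in SM/J, and differed by 0.83 ± 0.15 (adjusted p = 0.00204). Averaged over the list, the 4 treated NZW/LacJ animals stood 0.0977 to 0.149 above their vehicle mean and the SM/J animals between -0.132 and 0.0397 from theirs. Mrpl17 (0.48) took the opposite sign, -0.035, when its 3 probe sets were averaged. The count of 20 was 8 with all 31 arrays, 11 without the doubtful array and 13 with averaged probe sets. With quantile normalization repeated over the 16 arrays it was 14. None of 49 nuclear-encoded respiratory chain genes passed, and 2 had an unadjusted p under 0.05 by limma. With averaged probe sets 2 of that list were lower, and with every probe set tested 3 were.

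Of 34 tested proteasome genes 23 fell in SM/J and 13 in NZW/LacJ, beside 3.84% and 11.5% of all genes, and 0 rose in either. The strain difference was higher in 6 and lower in 0, beside 10.7% and 4.52% of all genes. Psmd14, the deubiquitinating subunit of the lid, measured 11.13, 11.06, 11.23 and 11.02 in vehicle and 10.60, 10.59, 10.55 and 10.82 in treated SM/J animals, with no overlap, and 10.41, 10.50, 10.48 and 10.52 under vehicle and 10.62, 10.37, 10.47 and 10.48 under the drug in NZW/LacJ, with overlap. It fell in SM/J by 0.47 ± 0.07 (adjusted p = 0.00139) and differed by 0.48 ± 0.10 (adjusted p = 0.00582). Psmd2 and Psmd13 differed by 0.42 and 0.32. The count of 6 was 2 with all 31 arrays, ran from 4 to 13 in fits without 1 animal and was 14 with array weights.

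Of 31 tested genes that answer unfolded proteins or the integrated stress signal, 3 were higher and 2 lower, shares near those of all genes (10.7% and 4.52%). Trib3, a pseudokinase induced by the integrated stress response, rose in NZW/LacJ by 0.74 ± 0.16 (adjusted p = 0.00226) with -0.42 ± 0.16 (adjusted p = 0.115) in SM/J (difference 1.17 ± 0.23, adjusted p = 0.00319). Dnajb9 and Dnajc3, chaperones of the endoplasmic reticulum, fell in NZW/LacJ by 0.81 ± 0.09 (adjusted p = 1.42e-05) and 0.50 ± 0.10 (adjusted p = 0.000909), and differed by -0.85 and -0.49. Of 16 heat shock genes, Hsph1 and Hspe1 were higher (1.34 and 0.41), and of 20 genes of the NRF2 antioxidant response 4 were higher and 0 lower, beside the same 10.7% and 4.52%.

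Gstm4, a glutathione transferase of that last list, measured 9.22, 9.07, 9.25 and 9.35 in vehicle and 9.80, 9.41, 9.51 and 9.23 in treated NZW/LacJ animals, and 9.64, 9.53, 9.70 and 9.61 under vehicle and 8.67, 9.03, 8.82 and 8.76 under the drug in SM/J. The SM/J groups did not overlap and those of NZW/LacJ did, in treated animal 4. It fell in SM/J by 0.80 ± 0.11 (adjusted p = 0.000634) and differed by 1.06 ± 0.15 (adjusted p = 0.000479). Txnrd1, thioredoxin reductase, and Abcc3, an efflux pump, rose in NZW/LacJ by 0.43 ± 0.09 (adjusted p = 0.00117) and 0.64 ± 0.09 (adjusted p = 0.000129).

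In lipid and bile acid metabolism, 3 of 31 genes of fatty acid oxidation were higher and 1 lower, shares near the 10.7% and 4.52% of all genes. The lower one was Acot1, a cytosolic acyl-CoA thioesterase, which fell in NZW/LacJ from 10.98, 11.63, 10.83 and 11.15 to 7.50, 9.57, 9.0 and 10.0, while its relative Acot3, a peroxisomal thioesterase, rose there by 1.28 ± 0.22 (adjusted p = 0.000455). Acot1 lost its call in 9 of the 16 fits without 1 animal (adjusted p up to 0.0742). Ppara, the receptor that drives this pathway, rose in NZW/LacJ by 0.48 ± 0.09 (adjusted p = 0.000919) with -0.04 ± 0.09 (adjusted p = 0.848) in SM/J. Its strain difference passed (0.52, adjusted p = 0.0139). Other tested probe sets of Ppara did not, at 0.34 (adjusted p = 0.219) and 0.44 (adjusted p = 0.0544) by limma. Cyp27a1 and Cyp7b1, enzymes of the acidic pathway of bile acid synthesis, fell in NZW/LacJ by 0.66 ± 0.06 (adjusted p = 5.01e-06) and 0.75 ± 0.15 (adjusted p = 0.00116), and differed by -0.41 and -0.92. Acly, which makes acetyl-CoA for lipid synthesis, was the 1 lower gene of 18 in fatty acid synthesis (-0.68, lost in 11 of 16 fits without 1 animal, adjusted p up to 0.0811).

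In 113 genes the drug effect passed in both strains with opposite signs. With opposite signs, the size of the strain difference is the sum of the effect sizes in NZW/LacJ and SM/J. The strain difference passed in all 113 genes, but this follows from how they were chosen and is no separate result. It was higher in 77 and lower in 36, which describes the strain in which each gene rose. Mcf2l measured 7.31, 7.41, 7.41 and 7.72 in vehicle and 8.64, 8.40, 8.68 and 8.26 in treated NZW/LacJ animals and 8.21, 8.55, 8.49 and 8.22 under vehicle and 7.24, 7.92, 7.77 and 7.31 under the drug in SM/J. Treated and vehicle animals were apart in both strains, in opposite order. Stap1, a signalling adaptor, rose by 1.09 ± 0.11 (adjusted p = 5.02e-06) in NZW/LacJ and fell by 0.55 ± 0.11 (adjusted p = 0.00557) in SM/J.

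Nudt1, which hydrolyses oxidised nucleotides, behaved alike (0.80 ± 0.08 and -0.48 ± 0.08), as did Tha1, threonine aldolase (0.90 ± 0.15 and -0.62 ± 0.15). Bmper, a secreted regulator of bone morphogenetic protein signalling, fell in NZW/LacJ from 8.76, 8.88, 8.97 and 8.67 to 7.26, 7.58, 7.85 and 7.41 and rose in SM/J from 6.65, 6.32, 6.38 and 6.21 to 7.90, 7.19, 7.11 and 7.33. Treated and vehicle animals were apart in both strains, and the treated animals of the strains overlapped. Lrrc28, Desi2 and Zfand4 likewise fell in NZW/LacJ (-0.90 ± 0.21, -0.57 ± 0.15 and -0.45 ± 0.14) and rose in SM/J (0.92 ± 0.21, 0.67 ± 0.15 and 0.72 ± 0.14).

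Bach2, a transcriptional repressor best known in lymphocytes, measured 6.0, 5.97, 6.25 and 6.18 in vehicle and 7.62, 7.61, 7.85 and 7.68 in treated NZW/LacJ animals, and 8.28, 8.35, 8.20 and 8.31 under vehicle and 8.20, 7.86, 8.36 and 7.88 under the drug in SM/J. The vehicle strains lay about 2 units apart and the treated ones closer. It rose in NZW/LacJ from vehicle values under 6.49, by 1.59 ± 0.10 (adjusted p = 3.91e-07), and differed by 1.80 ± 0.15 (adjusted p = 3.37e-05). Mterf2, of the mitochondrial transcription termination factor family, rose in NZW/LacJ by 1.51 ± 0.13 (adjusted p = 2.47e-06), and Eps8, an actin regulator downstream of the EGF receptor, by 1.32 ± 0.14 (adjusted p = 8.12e-06), with -0.14 ± 0.13 (adjusted p = 0.563) and -0.33 ± 0.14 (adjusted p = 0.159) in SM/J. Slc25a25, a mitochondrial ATP-magnesium carrier, and Nipal1, of a family of magnesium transporters, rose in NZW/LacJ by 1.01 ± 0.34 (adjusted p = 0.0299) and 1.74 ± 0.27 (adjusted p = 0.000186).

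The remaining large differences were lower. Tspyl4 fell in NZW/LacJ by 1.91 ± 0.20 (adjusted p = 9.87e-06) with -0.26 ± 0.20 (adjusted p = 0.488) in SM/J. Sucnr1, the succinate receptor, measured 10.36 to 10.89 in vehicle and 9.38 to 10.37 in treated NZW/LacJ animals, far above the 4.81 to 7.48 of SM/J, and neither strain's effect passed (-0.80 ± 0.36 and 0.93 ± 0.36), although the difference did (-1.73 ± 0.51, adjusted p = 0.0311, lost in 6 of 16 fits without 1 animal, adjusted p up to 0.0606). Rhpn2 also passed for the difference (-1.73 ± 0.43, adjusted p = 0.0144) with neither effect passing.

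Il1rn, the secreted antagonist of the interleukin-1 receptor, measured 8.01, 8.15, 7.30 and 7.93 in vehicle and 9.19, 9.77, 9.20 and 9.78 in treated NZW/LacJ animals, against 10.64, 10.22, 9.94 and 9.82 under vehicle and 10.27, 10.12, 10.37 and 10.62 under the drug in SM/J. It rose in NZW/LacJ by 1.64 ± 0.21 (adjusted p = 4.12e-05), 3.11-fold, and was the 1 gene of 19 cytokine and adhesion genes to pass (1.44 ± 0.30, adjusted p = 0.00468). Its other 2 tested probe sets did not pass, at 0.62 (adjusted p = 0.163) and 0.61 (adjusted p = 0.173) by limma. Of 26 acute-phase genes Crp and Socs3 were higher: Crp, C-reactive protein, rose in NZW/LacJ (0.62 ± 0.08), and Socs3, a feedback inhibitor of cytokine receptors, fell in SM/J (-0.68 ± 0.17).

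Of 16 sinusoidal endothelial markers Stab2, a scavenger receptor, and Clec4g, a lectin, were higher, by 0.83 ± 0.23 (adjusted p = 0.0259) and 0.95 ± 0.28 (adjusted p = 0.0328), a share near the 10.7% of all genes, with calls lost in 4 and 10 of the 16 fits without 1 animal (adjusted p up to 0.0546 and 0.067). None of 14 stellate cell, 6 neutrophil, 3 T and NK cell, 5 B and plasma cell, 4 cholangiocyte or 4 red blood cell markers passed. Summed stellate cell markers ran from 13.2 to 14.8 in treated NZW/LacJ animals, wider than in any other group, with Col3a1 at 10.66, 8.49, 7.97 and 11.65.

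**Figure D5:**
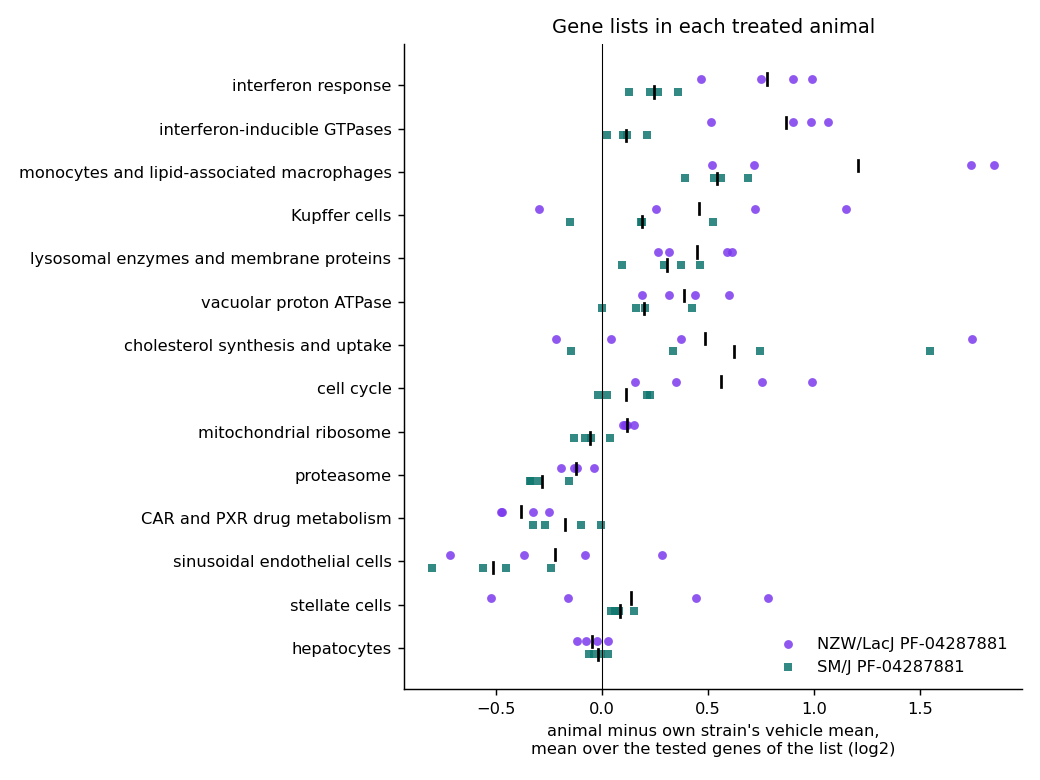
Each list's average shift from the vehicle mean of the strain, taken over its tested genes (horizontal axis, log2), for the 4 treated animals of NZW/LacJ (circles) and SM/J (squares), with bars at the mean of 4. The strains separate for the interferon lists and the mitochondrial ribosome, while for macrophage and stellate cell markers the 4 NZW/LacJ animals spread from 0.52 to 1.85 and from -0.52 to 0.78.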

How the data were processed

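Liver RNA of 31 mice was hybridised to 1-colour Affymetrix arrays, and the deposited values are log2 RMA intensities made by the authors with Affymetrix Power Tools, per the submitters' processing notes. Versions and a genome build are not given in the sources used here. RMA brings the distributions of the arrays close together, so a shift of most genes would be largely hidden. The deposited arrays still differed slightly, with medians from 6.43 to 6.54. Precision is limited by how many arrays there are. Of 44721 probe sets, 34728 had 1 gene symbol in the platform annotation, 872 had several and 9121 none. Symbols of 34525 were updated through Entrez identifiers in the RefSeq table of GRCm38.p6, used for names. Each of 18147 genes was represented by its probe set of highest mean over all arrays.

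The 12485 genes above 6.49, the median of all values, in at least 4 of the 16 arrays were tested with limma 3.58.1 in R 4.3.3, with 4 group means, empirical Bayes moderation, two-sided tests and Benjamini-Hochberg adjustment, and 5662 dim genes were set aside. The procedure was tested on simulated data. Named genes were the 12 largest differences in each direction that passed, the 5 largest in each direction with opposite effects that passed in both strains, and up to 4 passing members of each list (or 2 members where none passed), without predicted or clone names. The members and lists were chosen with earlier results of these data known. The alternatives were other arrays in the fit, filters, probe-set rules, normalizations, array weights, variance models, animal numbers as a block and each animal left out. Figures were drawn with matplotlib 3.10.9. No batch is named in the sources used here.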

Additional observations from a re-analysis of the deposited data

Results flagged for a closer look

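The drug effect differed between the strains, by limma's test of the difference itself, in 1902 genes, among them 88 of the 113 named genes.

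Within groups of 4 animals, 19 values of the named genes lay far from the other 3, of 452 groups examined, and chance alone marks about 1 group in 20. In vehicle NZW/LacJ animals these were Gbp7 in animal 2 (6.31, the others 6.12 to 6.14), Rhpn2 in animal 3 (8.46) and Psmb9 in animal 3 (8.73, the others 8.50 to 8.52). In treated NZW/LacJ animals, animal 3 stood out for Trib3 (12.06), Hsph1 (9.77), Cyp7b1 (9.85) and Asl (13.67), and animal 2 for Igfbp1 (10.95, the others 12.61 to 12.78). In vehicle SM/J animals, animal 1 stood out for Psmb9 (8.47), Trib3 (11.06), Dnajb9 (12.14) and Bid (8.84), animal 2 for Tat (12.78), animal 3 for Zfand4 (7.33) and Col3a1 (8.64), and animal 4 for Cyp2b10 (10.15, the others 9.23 to 9.36). In treated SM/J animals these were Ctsl in animal 1 (14.29), Eps8 in animal 2 (6.86, the others 7.09) and Epb42 in animal 4 (6.82).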

How the results depend on the processing

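All 1902 genes kept the direction of their strain difference in the fits with 31 and with 30 arrays, where 710 and 1136 of them passed. The totals were 720 (549 higher, 171 lower) and 1189 (883 and 306). In the same fits the NZW/LacJ total was 2753 with 31 arrays, with 818 lower, and the SM/J total was 338 (209 higher, 129 lower) and 616 (352 and 264). Testing every probe set gave 864 lower for the strain difference, 2309 lower in NZW/LacJ and 1581 in SM/J, 813 of them lower. Array weights raised the SM/J count to 2642 (1409 higher, 1233 lower). Other fits left these counts within 1.5 times. With animals left out in turn, the strain difference ranged from 1407 to 1952 (1022 to 1416 higher, 385 to 563 lower), NZW/LacJ from 3442 to 4356 (2335 to 2879 and 1103 to 1494) and SM/J from 619 to 1216 (337 to 777 and 275 to 533). With the animal number as a replicate block, 1898, 4243 and 1088 genes passed, 1725 of the 1902 among them. Only 8 of 24 same-numbered pairs deviated together with a correlation over 0.1, so the numbers were not taken to pair animals. Of 88 named calls, 50 were lost with 31 arrays, 28 with 30 and 17 in at least 1 fit without an animal; the cause was not tested. Of 72 counts of list members, 26 moved by more than 1.5 times with 31 arrays, 15 with 30 and 16 with array weights. Signs turned for Mrpl17 (-0.035) and Pax5 (0.029) with averaged probe sets, for Gzma (0.055), Epcam (-0.059) and Krt19 (0.036) with array weights, and without 1 animal for H2-Ab1 (-0.487 to 0.25), Elane (-0.121 to 0.032) and Krt19 (-0.204 to 0.085); of these, Mrpl17 alone had passed.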
